A study of Mus musculus with 2 samples.

Results

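Bone morphogenetic proteins (BMPs), their receptors and their secreted antagonists were followed through the cells of the mouse femoral metaphysis by single-cell RNA sequencing. The set was fixed by gene symbol and held 10 of the 27998 genes in the count matrices: the ligands Bmp2, Bmp4, Bmp5, Bmp6 and Bmp7, the receptors Bmpr1a, Bmpr1b and Bmpr2, and the antagonists Grem1 and Nog. All mice carried Gli1-CreERT2, in which the promoter of the Hedgehog target gene Gli1 drives a tamoxifen-dependent Cre, together with the tdTomato reporter Ai9, on a mixed background. At 1 month of age they received tamoxifen for 3 days, and then a daily injection for 3 days of either vehicle or teriparatide, the 1-34 fragment of parathyroid hormone, at 400 ng per g of body weight. From 5 mice per condition (3 males, 2 females) came 1 library of tdTomato+CD31-CD45-Ter119- cells, so that the label marks cells that expressed Gli1 during the tamoxifen days and whatever descended from them. The study's methods speak of a matrix for each mouse and of joining matrices, whereas the files used here hold 1 matrix per condition with no map from cells to mice.

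BMPs are secreted as dimers and signal through complexes of type I receptors, such as Bmpr1a and Bmpr1b, and the type II receptor Bmpr2, which phosphorylate Smad1, Smad5 and Smad9. Gremlin 1 and Noggin, the products of Grem1 and Nog, bind BMP ligands outside the cell and keep them from their receptors. In the growing skeleton the pathway is known for its roles in cartilage formation, osteoblast differentiation and the marrow stroma.

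The vehicle library held 1286 barcodes with 10567335 unique molecular identifiers (UMIs, each 1 captured mRNA molecule), and the teriparatide library 2142 barcodes with 26270041 UMIs. After the study's limits on genes and mitochondrial share, 549 and 1217 cells were kept, of which 424 and 607 fell in mesenchymal clusters and the rest almost wholly in clusters with hematopoietic or erythroid markers, in spite of the gate. Clusters were named from markers and are called OB-like (osteoblasts, 188 cells), preOB-like (preosteoblasts, 112), COP-like (chondrocyte-like osteoprogenitors, 331, in 3 clusters) and MALP-like (marrow adipogenic lineage precursors, 207). A pair of smaller clusters was osteocyte-like (54 cells, led by Mepe and Dmp1) and hypertrophic chondrocyte-like (28 cells, led by Col10a1 and Ihh). A cluster of 111 cells with a median of 1849 UMIs, led by Cfd and Pf4 and holding blood genes among its leaders, was left unnamed. The preOB-like cluster was led by Rgs5 and Aspn and also by Acta2. The hypertrophic chondrocyte-like cluster lay above the mean of the other clusters for 3 of 5 COP markers too. When each cell was instead assigned by its own marker score, 58 of the 112 preOB-like cells kept that name. So did 158 of the 188 OB-like, 308 of the 331 COP-like and all 207 MALP-like cells, and the MALP-like class grew to 289. The osteocyte-like class kept 53 of its 54 cells and grew to 70. The hypertrophic chondrocyte-like class kept all 28 and grew to 68. With a mitochondrial limit of 20%, the cluster named hypertrophic chondrocyte-like held 133 cells with a median of 1935 UMIs, led by Col10a1 and Rgs5. A level is the sum of a gene's UMIs in a class and library for every 1000000 UMIs counted there (CPM), and the exact 95% Poisson interval follows it in parentheses. With 1 library per condition there were no replicates and no test, and the intervals cover counting error only, not the spread between mice. The libraries also differed in sex: among mesenchymal cells with a call from Xist and Y-linked transcripts, 52.6% were male with vehicle and 90% in the teriparatide library. Sex and treatment could therefore not be told apart in the pooled values, and for the pairs of gene and class described most closely the ratios within male and within female cells are given too.

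The 10 genes differed in where they were read. Of the 8 members with at least 50 UMIs in each library over the 4 main classes, 3 had 1 class at least 2-fold above the next in both libraries: Bmp4 and Grem1 in the MALP-like cells and Bmp7 in the COP-like cells. Over all 8790 genes measured at this depth, 9.82% met the same rule, 3.55% in the MALP-like and 4.12% in the COP-like cells. With the osteocyte-like and hypertrophic chondrocyte-like cells added, 4 of 8 members met it against 8.35% of all genes, of which 2.92% were led by MALP-like, 1.55% by osteocyte-like and 0.598% by hypertrophic chondrocyte-like cells. Those were Bmp2 in the osteocyte-like cells, Nog in the hypertrophic chondrocyte-like cells, and again Bmp4 and Grem1 in the MALP-like cells, while Bmp7 no longer did. Bmp5, Bmpr1a and Bmpr2 had no such class, and Bmp6 and Bmpr1b were too sparse to be judged. The place of Nog rested on 28 UMIs in 7 vehicle cells, 23 of them in 1 cell. Without the richest cell of each library Nog had 82.7 and 82.2 CPM in the hypertrophic chondrocyte-like cells. With teriparatide, the interval of the class overlapped that of a finer COP-like subcluster described below.

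**Figure D1:**
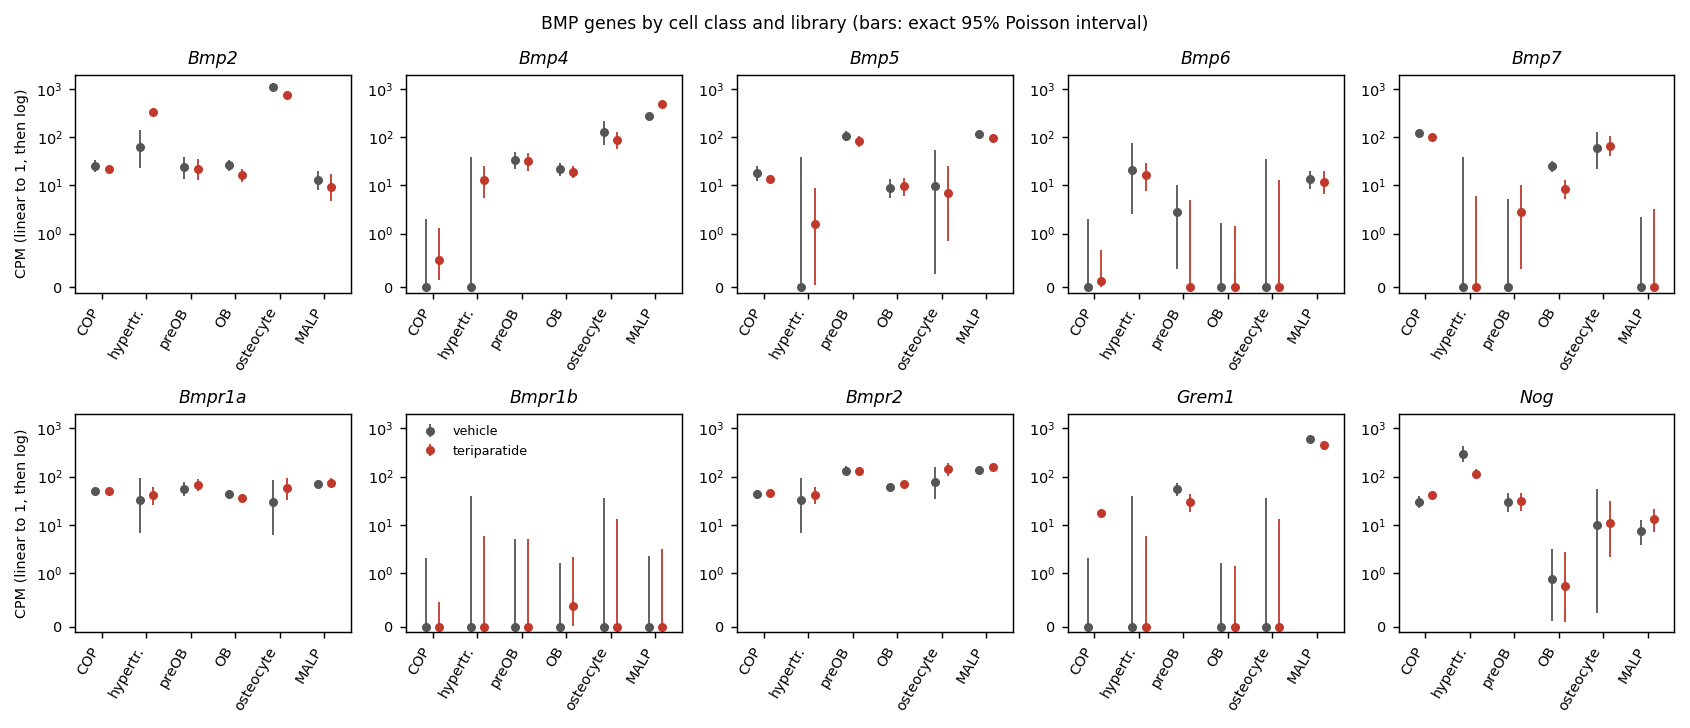
CPM of each gene (vertical axis, linear up to 1 and logarithmic above) in the 6 named classes (horizontal axis) for the vehicle library (grey) and the teriparatide library (red), with exact 95% Poisson intervals. Bmp4 and Grem1 peaked in MALP-like cells, Bmp2 in osteocyte-like cells and Bmp7 in COP-like cells in both libraries, and Bmpr1a and Bmpr2 were read in all 6 classes.

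Bmp4 (ENSMUSG00000021835, chr14:46383520-46390669 on GRCm38, minus strand) encodes a ligand that is known in adipose and skeletal precursors. The MALP-like cells of the vehicle library held 461 UMIs of Bmp4, or 282 CPM (257 to 309), and those of the teriparatide library 558 UMIs, or 481 CPM (442 to 522). At least 1 UMI was found in 89 of 125 vehicle cells (71.2%) and in 72 of 82 teriparatide cells (87.8%). In hematopoietic cells of the same libraries it was found in 0 of 73, with an exact interval up to 4.93%, and 1 of 443 (0.226%). With every cell thinned to 3300 UMIs, which left out 2 and 1 shallower cells, the shares were 42.3% and 56.8%. The teriparatide level was 1.71-fold the vehicle level, a log2 ratio of 0.77 (0.59 to 0.95). Among male MALP-like cells the level went from 404 to 491 CPM, a log2 ratio of 0.28 (0.07 to 0.49) over 51 and 64 cells. Among female cells it went from 150 to 459 CPM, a log2 ratio of 1.62 (1.04 to 2.16), with only 7 female cells in the teriparatide library. At a finer clustering resolution the MALP-like cells fell into a subcluster of 74 vehicle and 56 teriparatide cells in which Bmp4 had 378 and 499 CPM, and another of 51 and 26 cells in which it had 107 and 428 CPM. The vehicle level was thus lower in the smaller subcluster, while the teriparatide levels of the subclusters lay closer together. The larger subcluster held 86 male and 29 female cells and the smaller 29 and 44. Where Bmp4 went up, Adipoq went down, from 3059 CPM in 99.2% of the MALP-like cells with vehicle to 1074 CPM in 81.7% with teriparatide. The sum of the 5 MALP markers also went down, from 31834 to 25941 CPM. Acta2, a gene of contractile cells, went from 14.7 to 88.7 CPM there and the summed COP markers from 28.7 to 119 CPM. The part of these genes and of the subclusters in the Bmp4 ratio was not tested.

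Outside the MALP-like cells Bmp4 was low. It had 21.6 CPM with vehicle and 19.5 CPM with teriparatide in OB-like cells, and 33.7 and 31.9 CPM in preOB-like cells. In COP-like cells it was nearly missing, having 0 UMIs with vehicle and 4 in the teriparatide library, 0.5 CPM. The osteocyte-like cells stood between, at 128 CPM (68 to 218) and 88.7 CPM (57.4 to 131), from 13 and 25 UMIs. The intervals of the libraries overlapped in each of these classes. Within OB-like cells the sexes lay on opposite sides of no difference, with log2 ratios of Bmp4 of -1.13 (-1.89 to -0.34) in male and 2.01 (0.83 to 3.11) in female cells, the latter from 23 and 11 UMIs and 5 teriparatide cells. A single OB-like vehicle cell held 14 of the 49 UMIs of Bmp4, and no ratio within a sex was taken without it. Without the richest cell of each library the ratio over all OB-like cells was 0.08 (-0.59 to 0.77).

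Bmp2 (ENSMUSG00000027358, chr2:133552159-133562885, plus strand) encodes a ligand with strong bone-forming activity. Its highest level was in the osteocyte-like cells, at 1090 CPM (897 to 1313) from 111 UMIs with vehicle and 749 CPM (651 to 857) from 211 UMIs with teriparatide. It was seen in 13 of 17 and in 33 of 37 of these cells. The log2 ratio of -0.54 (-0.88 to -0.20) stayed inside the 1.5-fold limit, and it rested in part on 1 vehicle cell that held 35.1% of the UMIs, since without the richest cell of each library it was -0.17 (-0.56 to 0.25). Male cells gave -1.03 (-1.48 to -0.56) over 8 vehicle and 21 teriparatide cells. The vehicle cell richest in Bmp2, with 39 UMIs, was among the male vehicle cells, which held 63, and no male ratio was taken without it. Female cells gave 0.51 (-0.55 to 1.69), from 10 and 33 UMIs in 4 cells of each library. In the 4 main classes Bmp2 lay between 9.48 and 26.5 CPM.

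In the OB-like cells Bmp2 had 60 UMIs, 26.5 CPM (20.2 to 34.1), with vehicle and 43 UMIs, 16.4 CPM (11.9 to 22.1), in the teriparatide library. With vehicle Bmp2 was 1.61-fold its teriparatide level (log2 ratio -0.69, -1.29 to -0.10). The sexes went opposite ways. Male cells gave 52.3 and 11.4 CPM, a log2 ratio of -2.20, whereas female cells gave 17.0 and 97.7 CPM, a log2 ratio of 2.52, the latter from 5 teriparatide cells of which 1 held 16 of the 17 UMIs. The pooled ratio was -0.55 under scaling by the median ratio over genes and -0.25 without the 5% of cells with the most UMIs, both inside the 1.5-fold limit. The hypertrophic chondrocyte-like cells had 6 UMIs of Bmp2 in 7 vehicle cells, 64.3 CPM (23.6 to 140), and 204 UMIs in 21 teriparatide cells, 330 CPM (287 to 379). The teriparatide level was 5.14-fold higher (log2 ratio 2.36, 1.21 to 3.82), in a class where 25.7% of all genes were at least 1.5-fold higher. The vehicle cells were shallower, with a median of 9238 UMIs against 29665 in the teriparatide cells. A single teriparatide cell carried 102 of the 204 UMIs, and without the richest cell of each library 3 UMIs stood against 102 with a log2 ratio of 2.16 (0.57 to 4.46). None of these cells was called female.

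**Figure D2:**
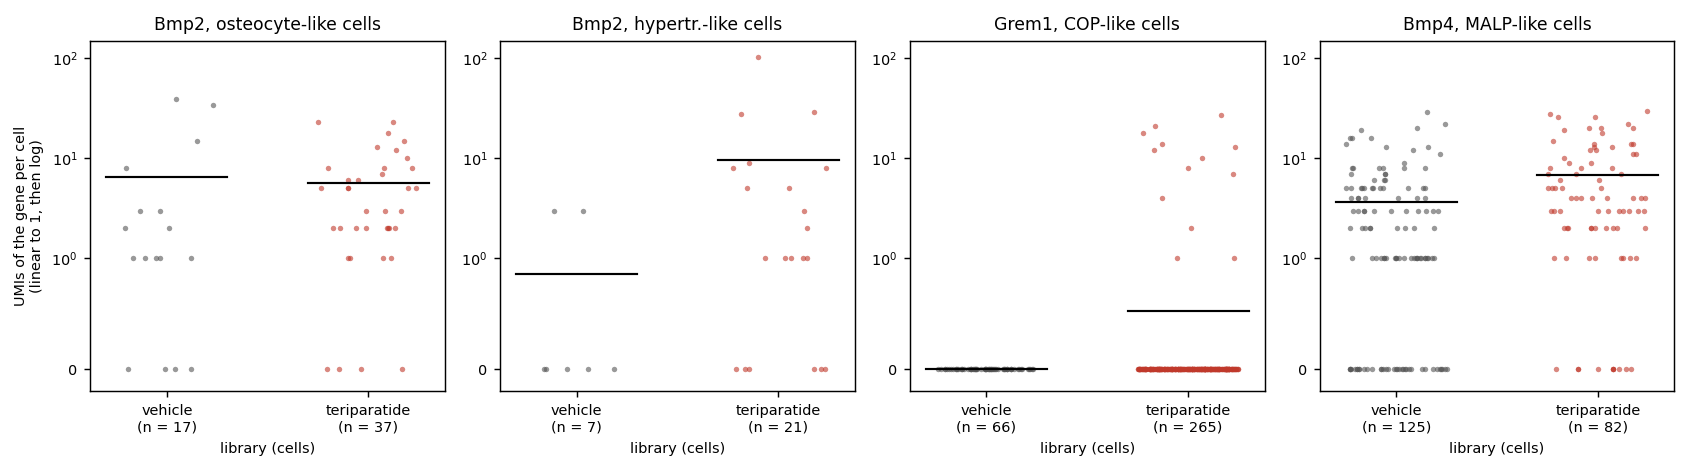
UMIs of a gene in each cell (vertical axis, linear up to 1 and logarithmic above) by library (horizontal axis), for Bmp2 in osteocyte-like and hypertrophic chondrocyte-like cells, Grem1 in COP-like cells and Bmp4 in MALP-like cells. Each point is 1 cell and the black line is the mean; single cells reached 102 UMIs of Bmp2 and 27 UMIs of Grem1, while Bmp4 was spread over most MALP-like cells.

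Bmp7 (ENSMUSG00000008999, chr2:172868012-172940321, minus strand) encodes a ligand with roles in kidney, eye and skeletal development. It was highest in the COP-like cells, with 220 UMIs and 121 CPM (106 to 139) with vehicle and 822 UMIs and 103 CPM (95.9 to 110) in the teriparatide library. It was seen in 58 of 66 and 212 of 265 COP-like cells, and in the hematopoietic cells in 1 of 73 and 0 of 443. At 3300 UMIs per cell the COP-like shares were 35.4% and 26.8%. The sexes differed in direction, with a log2 ratio of -0.51 (-0.74 to -0.27) in male and 1.23 (0.56 to 1.96) in female COP-like cells, the latter from 11 vehicle and 25 teriparatide cells. Within the COP-like class the cluster led by Ppa1 and the mitosis gene Top2a was lowest at 53.5 and 50.1 CPM. The cluster led by Cpm and Sfrp5 had 134 and 138 CPM, and the cluster led by Bpifb1 and Stc2 had 175 and 116 CPM. MALP-like and hypertrophic chondrocyte-like cells had 0 UMIs of Bmp7 in both libraries, and preOB-like cells 0 and 2.

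In the OB-like cells Bmp7 had 57 UMIs, 25.2 CPM (19.1 to 32.6), with vehicle and 22 UMIs, 8.4 CPM (5.27 to 12.7), in the teriparatide library, and the intervals did not overlap. The vehicle level was 3-fold the teriparatide level, a log2 ratio of -1.58 (-2.36 to -0.85). The direction was shared by male cells at -1.18 (-2.32 to 0.00) and female cells at -0.80 (-3.13 to 0.85), each with an interval that reached no difference. The summed COP markers in the OB-like cells also differed, with 727 CPM with vehicle and 335 CPM with teriparatide, and their part in the Bmp7 ratio was not tested. They stood at 559 CPM in the 49 OB-like cells with a UMI of Bmp7 and at 492 CPM in the other 139. Col2a1 made up 978 of the 997 marker UMIs in the cells with Bmp7. The other COP markers were lower there: Sox9 had 7.86 against 12.3 CPM, Sox5 0 against 0.645, Sox6 1.68 against 4.52 and Acan 1.12 against 6.45. The cells with Bmp7 were also deeper, with a median of 37190 UMIs against 17232. Osteocyte-like cells held Bmp7 at 58.9 and 67.4 CPM, from 6 and 19 UMIs.

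Bmp5 (ENSMUSG00000032179, chr9:75775364-75900310, plus strand) encodes a ligand needed for normal ear cartilage in mice, and it was read mainly in stromal classes. MALP-like cells had 117 CPM (101 to 134) with vehicle and 94.8 CPM (77.9 to 114) with teriparatide, from 191 and 110 UMIs. In preOB-like cells 77 and 59 UMIs gave 108 CPM (85.3 to 135) and 81.8 CPM (62.3 to 106). These 2 classes did not differ beyond their counting intervals in either library. COP-like cells followed at 18.2 and 13.5 CPM and OB-like cells at 8.84 and 9.55 CPM. The ratios of the libraries were -0.30, -0.40 and -0.43 on the log2 scale in MALP-like, preOB-like and COP-like cells, and each interval included no difference. Bmp6 (ENSMUSG00000039004, chr13:38345107-38500302, plus strand) encodes a ligand known for iron regulation in liver. Most of its UMIs were in MALP-like cells, at 13.4 CPM (8.42 to 20.4) and 12.1 CPM (6.59 to 20.2) from 22 and 14 UMIs. In hypertrophic chondrocyte-like cells 2 and 10 UMIs gave 21.4 CPM (2.59 to 77.4) and 16.2 CPM (7.77 to 29.8), with intervals that overlapped those of the MALP-like cells. The OB-like and osteocyte-like cells had 0 UMIs of it in both libraries. A gene annotated on the same strand overlaps Bmp5. Whether that gene was among the counted ones was not checked, so the effect of the overlap on the counts is not known.

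Of the receptors, Bmpr1a and Bmpr2 were read in every named class, Bmpr1a the more evenly over the 4 main ones. Bmpr1a (ENSMUSG00000021796, chr14:34410734-34503341, minus strand), a type I receptor, lay between 36.3 and 75.0 CPM in the 4 main classes of both libraries. Bmpr2 (ENSMUSG00000067336, chr1:59763400-59879014, plus strand), the type II receptor, had 138 and 156 CPM in MALP-like cells, 133 and 132 CPM in preOB-like cells, 59.6 and 69.5 CPM in OB-like cells and 43.1 and 44.7 CPM in COP-like cells. In both libraries the MALP-like and preOB-like values overlapped each other in their intervals and lay above those of the OB-like and COP-like cells. A gene on the same strand also overlaps Bmpr2. Hematopoietic cells were lower, with Bmpr1a at 9.01 and 5.85 CPM and Bmpr2 at 18.0 and 21.8 CPM, and the erythroid cells had 0 UMIs of Bmpr1a. Over all cells the 8 log2 ratios of the 2 receptors in the 4 main classes lay between -0.25 and 0.28, with intervals that included no difference. Within the sexes they spread further. Over male preOB-like cells Bmpr2 had -0.63 (-1.21 to -0.04) and over female ones 0.66 (-0.26 to 1.53). Among female cells Bmpr1a had 0.95 (-0.19 to 1.95) in MALP-like and -0.99 (-2.90 to 0.44) in OB-like cells. Bmpr1b (ENSMUSG00000052430, chr3:141837136-142169425, minus strand), the other type I receptor of the set, had 1 UMI over all classes and libraries, in an OB-like cell of the teriparatide library. A count of 0 in the deepest class, the COP-like cells of the teriparatide library, has an exact interval up to 0.461 CPM.

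Grem1 (ENSMUSG00000074934, chr2:113746164-113758646, minus strand) encodes Gremlin 1, which binds BMP2, BMP4 and BMP7. Its highest level was in the MALP-like cells, with 984 UMIs and 601 CPM (564 to 640) with vehicle and 526 UMIs and 453 CPM (415 to 494) in the teriparatide library. It was seen in 94.4% and 95.1% of them. The teriparatide level was lower with a log2 ratio of -0.41 (-0.56 to -0.25), which did not reach 1.5-fold. Within male cells the ratio was -0.30 (-0.50 to -0.10) and within female cells -0.02 (-0.46 to 0.39), and female vehicle cells had more Grem1 than male ones, 655 against 550 CPM. In the finer subclusters Grem1 had 528 and 439 CPM in the larger and 735 and 496 CPM in the smaller, so that the subcluster with less Bmp4 in the vehicle library had more Grem1 there. The unnamed cluster carried 257 and 82.9 CPM of Grem1, and its summed MALP markers were 23637 and 6277 CPM.

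Because Bmp4 and Grem1 shared the MALP-like class, the 250 bases before their RefSeq starts are shown, both on the minus strand of GRCm38.p6. Capitals mark GGCGCC, the GC-rich box that BMP-activated Smads are known to bind, searched on both strands.
Bmp4, chr14:46390670-46390919: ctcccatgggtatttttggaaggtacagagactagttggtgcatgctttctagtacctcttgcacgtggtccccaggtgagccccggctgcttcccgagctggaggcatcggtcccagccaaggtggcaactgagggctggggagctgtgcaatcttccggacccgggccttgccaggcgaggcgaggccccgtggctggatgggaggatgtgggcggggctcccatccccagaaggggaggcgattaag
Grem1, chr2:113758649-113758898: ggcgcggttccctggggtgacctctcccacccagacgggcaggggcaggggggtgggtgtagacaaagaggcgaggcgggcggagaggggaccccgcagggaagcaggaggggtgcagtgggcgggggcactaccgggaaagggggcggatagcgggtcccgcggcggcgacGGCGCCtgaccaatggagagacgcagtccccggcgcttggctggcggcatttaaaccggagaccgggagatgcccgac
The Grem1 window held 1 such box, 78 bases before the start, and the Bmp4 window none. RefSeq promoter entries were found for 7 of the 10 members, in 9 windows, and 3 of the windows held the box, those of Bmpr1a, Bmpr2 and Grem1, against 9.59% of all 32851 promoter windows. The half-site of the cAMP response element, TGACG, was in none of the 9 windows and in 17.8% of all windows. These are matches of letters and not sites of binding.

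Grem1 appeared outside the MALP-like cells in 2 further classes. PreOB-like cells had 39 UMIs, 54.7 CPM (38.9 to 74.8), with vehicle and 21 UMIs, 29.1 CPM (18.0 to 44.5), in the teriparatide library, a log2 ratio of -0.91 (-1.75 to -0.11). Without the richest cell of each library the ratio was -0.80 (-1.76 to 0.11), with an interval that included no difference. Male preOB-like cells gave -1.97 (-3.08 to -0.94), while female cells pointed the other way at 0.27 with few UMIs. The MALP markers moved with it: their sum in the preOB-like cells was 5493 CPM with vehicle and 2241 CPM with teriparatide. In the 25 preOB-like cells with a UMI of Grem1 the sum was 10288 CPM and in the other 87 it was 1823 CPM, with none of the 5 markers at 0. The part of these markers in the ratio was not tested. With each cell assigned by its own marker score, the ratio of Grem1 in preOB-like cells was 2.52, on the other side of no difference.

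The COP-like cells had 0 UMIs of Grem1 in 66 vehicle cells and 138 UMIs in the teriparatide library, 17.3 CPM (14.5 to 20.4). Against a floor of 3 UMIs in the vehicle library the ratio was 10.4-fold. That floor treats UMIs as independent, so it is not a lower bound where many UMIs share a cell, as here. The UMIs sat in 13 of 265 teriparatide cells (4.91%, exact interval 2.64 to 8.24). The exact interval of 0 of 66 vehicle cells reached 5.44%, above the share of the teriparatide cells. Thinned to 3300 UMIs they were 8 of 261 and 0 of 65. Of the 13 cells, 12 were in the cluster led by Cpm and Sfrp5, where 12 of 100 teriparatide and 0 of 25 vehicle cells had Grem1. The exact interval of the vehicle share there reached 13.7%. The richest cell held 19.6% of the UMIs, and without it 111 UMIs remained. Hematopoietic cells of the teriparatide library had Grem1 in 2 of 443 (0.451%), at a median of 11128 UMIs against 30922 in the COP-like cells. The 13 cells carried little of the MALP markers, 7.23 CPM in sum with Vcam1, Pdgfrb and Adipoq at 0, compared with 17.8 CPM in the other 318 COP-like cells, and their median of 32339 UMIs was near that of the others at 30218. Of these 13 cells 12 were called male and none female, and the Cpm-led cluster as a whole held 119 male and 2 female cells. OB-like, osteocyte-like and hypertrophic chondrocyte-like cells had 0 UMIs of Grem1 in both libraries.

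Nog (ENSMUSG00000048616, chr11:89300638-89302332, minus strand) encodes Noggin, an antagonist needed for joint formation. In COP-like cells it had 54 UMIs, 29.8 CPM (22.4 to 38.9), with vehicle and 328 UMIs, 41.0 CPM (36.7 to 45.7), in the teriparatide library. The log2 ratio was 0.46 (0.04 to 0.90), inside the 1.5-fold limit. A single vehicle cell held 16 of the 54 UMIs, and without the richest cell of each library the ratio was 0.80 (0.31 to 1.33), past that limit. The sexes were opposite, at 0.89 (0.39 to 1.43) in male and -1.94 (-3.07 to -0.83) in female cells. Among the 11 female vehicle cells 1 cell held 16 of the 17 UMIs. The COP-like class was uneven. The cluster led by Cpm and Sfrp5 had 13.4 and 12.0 CPM, the cluster led by Bpifb1 and Stc2 had 8.11 CPM (2.63 to 18.9) and 61.1 CPM (52.3 to 70.9), and the cluster led by Ppa1 and Top2a had 68.6 and 49.3 CPM. At the finer resolution the Bpifb1 and Stc2 cluster split into a subcluster led by Stc2 and Chad, of 7 vehicle and 63 teriparatide cells with Nog at 11.1 CPM (1.34 to 40.0) and 90.7 CPM (77.0 to 106), and a subcluster led by R3hdml and Krt79, of 16 and 36 cells with 6.88 and 13.8 CPM. The makeup of that cluster thus differed between the libraries, and its part in the Nog levels was not tested. Bmp7 and Nog were not highest in the same COP-like clusters in the vehicle library.

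The hypertrophic chondrocyte-like cells had 28 UMIs of Nog in the vehicle, 300 CPM (199 to 433), and 69 in the teriparatide library, 112 CPM (86.9 to 141), a log2 ratio of -1.42 (-2.08 to -0.74). This ratio rested on 1 vehicle cell with 23 of the 28 UMIs, and without the richest cell of each library the levels were 82.7 and 82.2 CPM. PreOB-like cells had Nog at 29.5 and 30.5 CPM, MALP-like cells at 7.33 and 12.9 CPM, and OB-like cells 2 UMIs in each library.

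**Figure D3:**
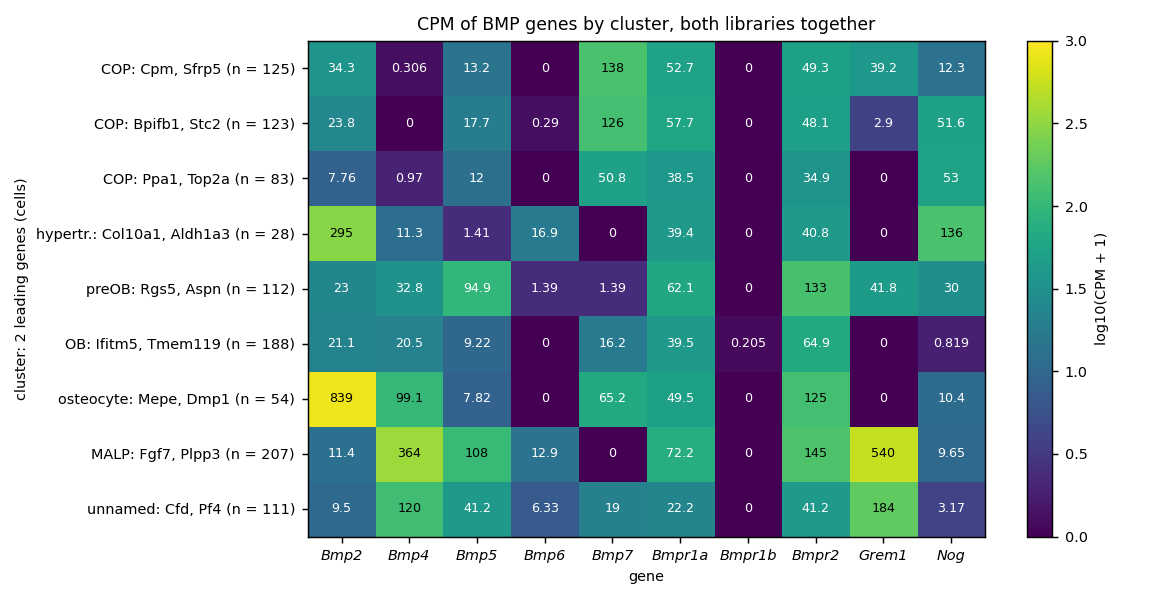
CPM of each gene (columns) in the 9 mesenchymal clusters (labelled by class, 2 leading genes and number of cells) with both libraries together; colour gives log10(CPM + 1). The 3 COP-like clusters held Bmp7 between 50.8 and 138 CPM and Nog between 12.3 and 53.0 CPM, and Grem1 was 540 CPM in MALP-like cells against 39.2 CPM in the Cpm-led cluster.

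Cells with a UMI of both a ligand and an antagonist were counted. Of 207 MALP-like cells, 156 had both Grem1 and Bmp4, 40 Grem1 alone, 5 Bmp4 alone and 6 neither. Of 331 COP-like cells, 83 had both Nog and Bmp7, 187 Bmp7 alone, 20 Nog alone and 41 neither. All but 1 of the 13 COP-like cells with Grem1 also had Bmp7, which was found in 81.6% of all COP-like cells. In the Cpm-led cluster, which held most of the 13, Bmp7 was in 88 of 100 teriparatide cells. In the hypertrophic chondrocyte-like cells Nog and Bmp2 were found together in 10 of 28. Such counts depend on the depth of a cell, and no test was made of them.

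Between the libraries, 21 of the 40 pairs of a member and a main class had at least 50 UMIs. Of these, 2 were at least 1.5-fold higher in the teriparatide library, Bmp4 in MALP-like and Grem1 in COP-like cells, where 7.93% of all pairs of a gene and a class were. A further 3 were at least 1.5-fold lower, Bmp2 and Bmp7 in OB-like and Grem1 in preOB-like cells, where 14.7% of all pairs were. The remaining 16 were neither. Under scaling by the median ratio over genes the split was 3 higher and 2 lower, as Nog in COP-like cells passed the limit at 0.66 and Bmp2 in OB-like cells no longer did. The members' shares, 9.52% higher and 14.3% lower, were near these backgrounds. By class, the share of all genes past the limit was 6.77% higher and 13.5% lower in OB-like cells, 8.39% and 18.8% in preOB-like, 8.29% and 17.1% in COP-like, and 8.2% and 10.1% in MALP-like cells. Among the osteocyte-like cells, where 19.4% of genes were higher and 13.2% lower, the 1 member with enough UMIs was neither. In the hypertrophic chondrocyte-like cells, where 25.7% were higher and 18% lower, Bmp2 was higher and Nog lower. The median log2 ratio over all genes was -0.14 in OB-like and preOB-like, -0.20 in COP-like and -0.08 in MALP-like cells.

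**Figure D4:**
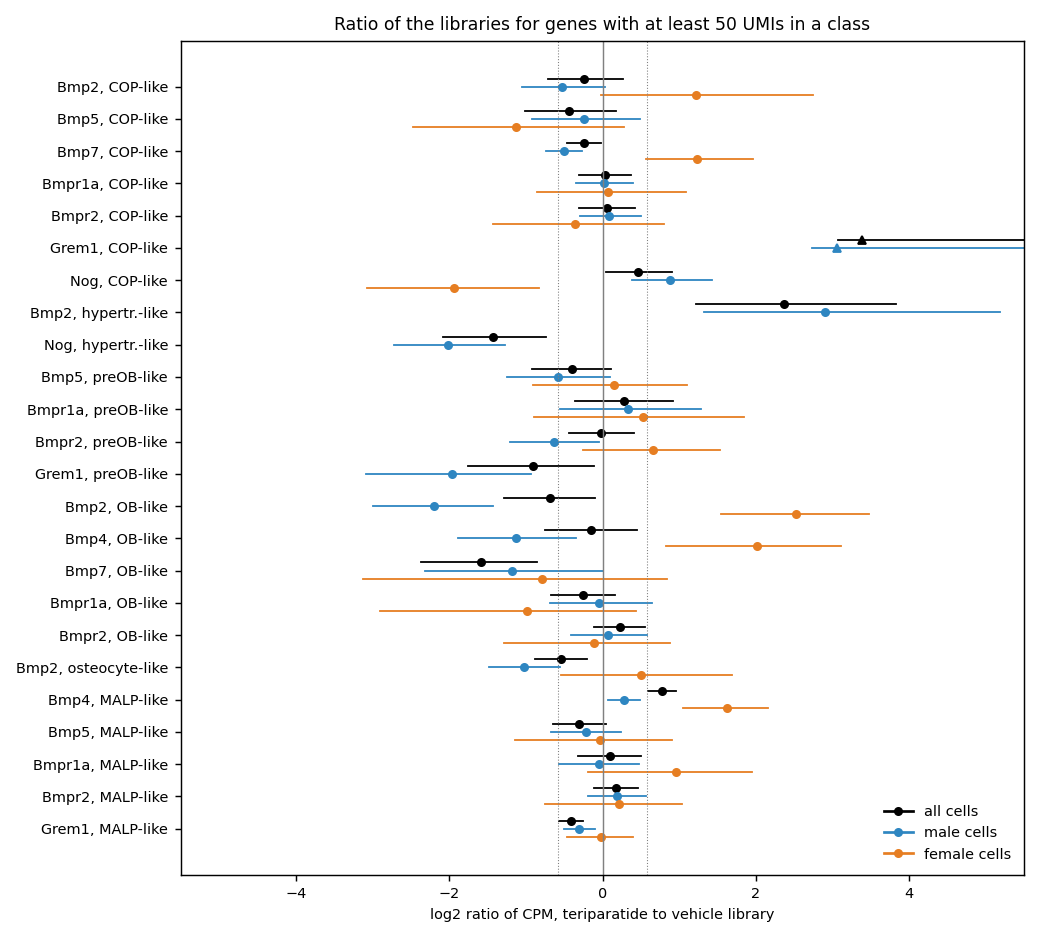
Log2 ratio of CPM, teriparatide to vehicle library (horizontal axis), for each pair of gene and class with at least 50 UMIs. Ratios are given over all cells (black), male cells (blue) and female cells (orange, or absent with under 20 UMIs), with exact 95% intervals. Triangles are ratios in which a level of 0 was set to the floor. They are not lower bounds where many UMIs share a cell, as for Grem1 in COP-like cells. Dotted lines mark 1.5-fold. The sexes lie on opposite sides for Bmp2 and Bmp4 in OB-like cells and for Bmp7 and Nog in COP-like cells, and the receptors lie near 0 over all cells but further from it within the sexes, as for Bmpr2 in preOB-like cells at -0.63 in male and 0.66 in female cells.

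The other genes of the pathway were described from a list of 60 symbols, of which 59 were in the files. In the 4 main classes 120 pairs of gene and class had enough UMIs, with 15 higher (12.5%), 14 lower (11.7%) and 91 neither, beside 7.93% and 14.7% over all pairs. Scaling by the median ratio gave 22 higher and 10 lower. MALP-like cells had 7 higher (23.3%) and 0 lower of 30, beside 8.2% and 10.1% of all genes in the class. The median log2 ratio was 0.16 against -0.08 over all genes. The 7 higher genes were 1 ligand, 1 antagonist, 3 intracellular genes and 2 targets. The largest were Nbl1, an extracellular BMP antagonist, from 11.6 to 62.0 CPM (log2 ratio 2.42), Gdf10, a BMP-related ligand, from 14.7 to 71.5 CPM (2.29), and the inhibitory Smad6 from 18.9 to 39.6 CPM (1.07). Over male MALP-like cells their ratios were 1.53, 1.54 and 1.34. Over female ones Nbl1 had 3.89, with only 7 cells in the teriparatide library, and Gdf10 and Smad6 had no ratio. COP-like cells had 3 higher (8.57%) and 8 lower (22.9%) of 35, beside 8.29% and 17.1% of all genes in the class. The median was -0.28 against -0.20. The higher genes were Bmp8a, a ligand, at 1.69, Rgma, a co-receptor, at 1.68 and Chrdl1, a chordin-like antagonist, at 0.81, and the lowest ratios were those of Fstl3 at -1.33, Nbl1 at -1.05 and Fstl1 at -0.89, genes of secreted BMP or activin binders and their relatives. Over the few female COP-like cells Fstl3 and Nbl1 pointed the other way, at 0.93 and 0.66 against -1.56 and -0.87 over male cells.

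OB-like cells had 3 higher (11.5%) and 1 lower (3.85%) of 26 pathway genes, beside 6.77% and 13.5% of all genes in the class. Among them were Smurf2, a ubiquitin ligase of receptor Smads, at 1.24 and Bambi, a pseudoreceptor, from 607 to 325 CPM (-0.90). PreOB-like cells had 2 higher (6.9%) and 5 lower (17.2%) of 29, near the 8.39% and 18.8% of all genes in the class. The higher genes were Nbl1 at 0.84 and Id2, a target of BMP signalling, at 0.71. The lower genes included Tob1, an inhibitor of Smad signalling, at -1.94, Bambi at -1.63 and Gdf10 at -1.29. Nbl1 was thus higher in MALP-like and preOB-like and lower in COP-like cells, and Gdf10 higher in MALP-like and lower in preOB-like cells. In the preOB-like cells Nbl1 was higher over male cells, at 0.83, and lower over female cells, at -1.64. Among the osteocyte-like cells Sost, listed with the antagonists and modulators and also used as a marker, had 0 and 66 UMIs in 17 and 37 cells. Against the floor of 3 UMIs this was 7.95-fold, which is not a lower bound where many UMIs share a cell. Skil had -0.96 and Id3 -0.71. Of these Id3 had 0.30 over male and -1.30 over female osteocyte-like cells, and Skil -0.42 and -2.06. In the hypertrophic chondrocyte-like cells Id3 went from 1 to 76 UMIs, a ratio of 3.52 (1.00 to 8.84), with Bambi at 1.75 and Runx2, also a marker, at 1.35.

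Over 17 points, each a cluster in 1 library, the gene whose log2(CPM + 1) followed a member most closely was Kalrn for Bmp4 (Pearson r 0.957), Lgals3bp for Bmp5 (0.958), Ltbp2 for Grem1 (0.941), Vangl1 for Bmpr1a (0.932), B4galt1 for Bmpr2 (0.923), Slc25a25 for Bmp2 (0.896), Col15a1 for Bmp7 (0.857) and Lxn for Nog (0.832). The points share libraries and clusters, and many of these genes helped to form the clusters, so the values only describe likeness.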

How the data were processed

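The deposited matrices hold raw UMI counts per gene and cell barcode; per the labels the authors aligned 10x Genomics reads to mm10 and counted with Cell Ranger 2.1.0, whereas the matrix header names 3.1.0. Cells with 200 to 6000 genes and at most 10% mitochondrial UMIs were kept. The libraries were integrated and clustered in Seurat 5.3.0 (canonical correlation, 20 principal components, 2000 variable genes, resolution 0.6), then again without blood clusters and cells with Ptprc. Markers, members and pathway genes were kept out of the variable genes. A cluster took the name whose markers (at least 3, in at least 10% of its cells) it held best. No doublet caller was run. The libraries shared 2 barcodes.

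Counts were summed per class and library in Python 3.11.15 with scipy 1.17.1. Intervals are exact Poisson for levels, conditional exact binomial for ratios and Clopper-Pearson for shares. Ratios were called at 1.5-fold from 50 UMIs upwards; ratios within a sex are also given as values below 50 UMIs, and a level of 0 was set to a floor of 3 counts. Pathway genes named were, per class, up to 3 higher and 3 lower with the largest ratio whose interval left out no change, and likeness was taken over clusters of at least 10 cells. The interval script was tested on simulated data with independent UMIs, so the test checks the calculation and does not cover UMIs that share a cell. The members and lists were chosen with earlier results of these data known. Positions are GENCODE vM21, promoters RefSeq.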

Additional observations from a re-analysis of the deposited data

Results flagged for a closer look

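The ratio of the libraries differed between the sexes for 4 pairs, each with the counting interval of male and of female cells on opposite sides of no difference. In OB-like cells the log2 ratio of Bmp2 was -2.20 in male and 2.52 in female cells, and that of Bmp4 -1.13 and 2.01. In COP-like cells Bmp7 had -0.51 and 1.23, and Nog 0.89 and -1.94. The female OB-like values rest on 5 teriparatide cells, and the female COP-like values on 11 vehicle and 25 teriparatide cells. The female values of Bmp2 and Bmp4 in OB-like cells (25 and 17, 23 and 11 UMIs) and of Nog in COP-like cells (17 and 14 UMIs) lie under 50 UMIs. Among the female OB-like teriparatide cells 1 cell held 16 of the 17 UMIs of Bmp2, and among the female COP-like vehicle cells 1 cell held 16 of the 17 UMIs of Nog. These 2 female ratios thus rested largely on single cells. Of the 49 vehicle UMIs of Bmp4 in OB-like cells, 14 sat in 1 cell, and no ratio within a sex was taken without it. Without the richest cell of each library, Bmp4 over all OB-like cells had a ratio of 0.08 (-0.59 to 0.77). The difference between the sexes was not tested.

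The ratio also differed between classes for 3 members, with counting intervals on opposite sides. Bmp2 was 2.36 in hypertrophic chondrocyte-like, -0.69 in OB-like and -0.54 in osteocyte-like cells. Grem1 was 3.38 against the floor of 3 UMIs in COP-like cells, -0.91 in preOB-like and -0.41 in MALP-like cells. Nog was 0.46 in COP-like and -1.42 in hypertrophic chondrocyte-like cells. Without the richest cell of each library the ratio was -0.17 (-0.56 to 0.25) for Bmp2 in osteocyte-like cells and 2.16 (0.57 to 4.46) in hypertrophic chondrocyte-like cells. Nog in the latter had 82.7 and 82.2 CPM, and Grem1 in preOB-like cells had a ratio of -0.80 (-1.76 to 0.11). Osteocyte-like Bmp2, preOB-like Grem1 and hypertrophic chondrocyte-like Nog thus no longer lay apart from no difference. These differences were not tested either, as each library is 1 sample.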

How the results depend on the processing

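No paired analysis was possible because each condition had 1 library and the labels carry no replicate numbers. Members with a leading class numbered 2 to 4 under all alternatives. The counts of 2 higher and 3 lower members' pairs became 1 and 0 of 7 with cells thinned to 3300 UMIs, 5 and 1 of 11 in female cells, and the lower count became 1 of 20 without the 5% of cells with the most UMIs. The 15 higher and 14 lower pathway pairs became 37 and 24 of 181 with a minimum of 1 UMI and 7 and 7 of 50 when thinned. Bmp2 in OB-like cells reversed to 2.52 in female cells, and Grem1 in preOB-like cells to 0.27 in female cells and to 2.52 with cells assigned one by one by marker score; the cause was not tested. Of the 21 members' ratios, 20 kept their sign in male, 10 of 20 in female and 16 in thinned cells, and 14, 4 and 13 stayed inside the interval of the ratio over all cells. In male cells Bmp4 in MALP-like cells fell inside the 1.5-fold limit at 0.28, Bmp7 in OB-like and Grem1 in preOB-like cells had under 50 UMIs, and Nog in COP-like (0.89), Bmp4 in OB-like (-1.13) and Bmpr2 in preOB-like cells (-0.63) passed it. Leaving out the richest cell for each member, chosen after seeing the data, kept 19. Across alternatives Bmp4 in MALP-like cells ranged from 0.28 to 1.62 and Bmp7 in OB-like cells from -1.70 to -0.80. The ratio of Grem1 against the floor in COP-like cells was between 0.11, with thinned cells and so fewer UMIs, and 3.58. Sparse members (Bmp6, Bmpr1b) and the female cells of the teriparatide library are limited by depth and cell number.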
